A study of Mus musculus with 2 samples.

Results

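The regions described here are the loci at which the ERRα peak list has 3, 4 or 5 neighbouring windows on a mouse chromosome. They hold 221 of the 3225 ERRα windows in the peak list (6.85%), grouped in 65 runs. A run was chosen by joining consecutive windows wherever the end of a window and the start of the next lay at most 10 kb apart, and by keeping the runs of exactly 3 to 5 windows. Of the 65 runs, 45 had 3 windows, 14 had 4 and 6 had 5. For comparison, 2413 windows stood alone and 426 formed 213 runs of 2, while 165 windows in 8 runs of more than 5 were set aside.

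ERRα was immunoprecipitated with a monoclonal antibody from C2C12 myotubes and the recovered DNA was sequenced (ChIP-seq), with whole-cell extract DNA of such myotubes as the input background. The C2C12 line consists of mouse myoblasts, muscle precursor cells that fuse into myotubes when serum is low; here 2% horse serum was given for 72 h, and an adenovirus with flag-tagged PGC-1α followed for 48 h. Both libraries, 1 immunoprecipitate and 1 input, came from infected cells of this line, so PGC-1α was raised in both and no culture without the virus enters the list. Without a replicate, every count and interval below describes 1 list of positions, and read depth is unknown because the list gives no read count.

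ERRα is an orphan nuclear receptor, a transcription factor with no established natural ligand, that binds an extended nuclear receptor half-site in DNA. PGC-1α is a coactivator that docks on ERRα, and together they raise genes of mitochondrial respiration and fatty acid oxidation in muscle. Neighbouring sites for such a receptor can lie in the promoter and in nearby enhancers of the same gene. All windows of the list have the same width of 200 bp, so several sites side by side cannot be told apart from a broad bound region listed as several windows. Neither sequence nor gene annotation of the mm9 build was used here, and the runs are therefore named by position (mm9, counted from 1).

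The 65 runs fell into tight and loose loci, so the word compact describes most of them but not all. In 39 runs (60%) every step, the distance between the starts of neighbouring windows, was at most 3 kb. In 23 runs at least 1 step was 5 kb or longer, and only 3 runs had their longest step in between. The whole span, from the start of the first window to the end of the last, had a median of 4.10 kb (quartiles 2.83 and 10.0 kb) and ran from 1.08 to 24.5 kb. It was at most 5 kb in 38 runs and above 10 kb in 17. The median span did not rise steadily with the number of windows: it was 3.78 kb for runs of 3, 8.59 kb for runs of 4 and 4.96 kb for runs of 5. The shortest span did rise, from 1.08 to 2.35 and 3.88 kb, and so did the first quartile, from 2.25 to 3.26 and 4.16 kb. These positions are the values that chose the runs, so they are given without a test.

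**Figure D1:**
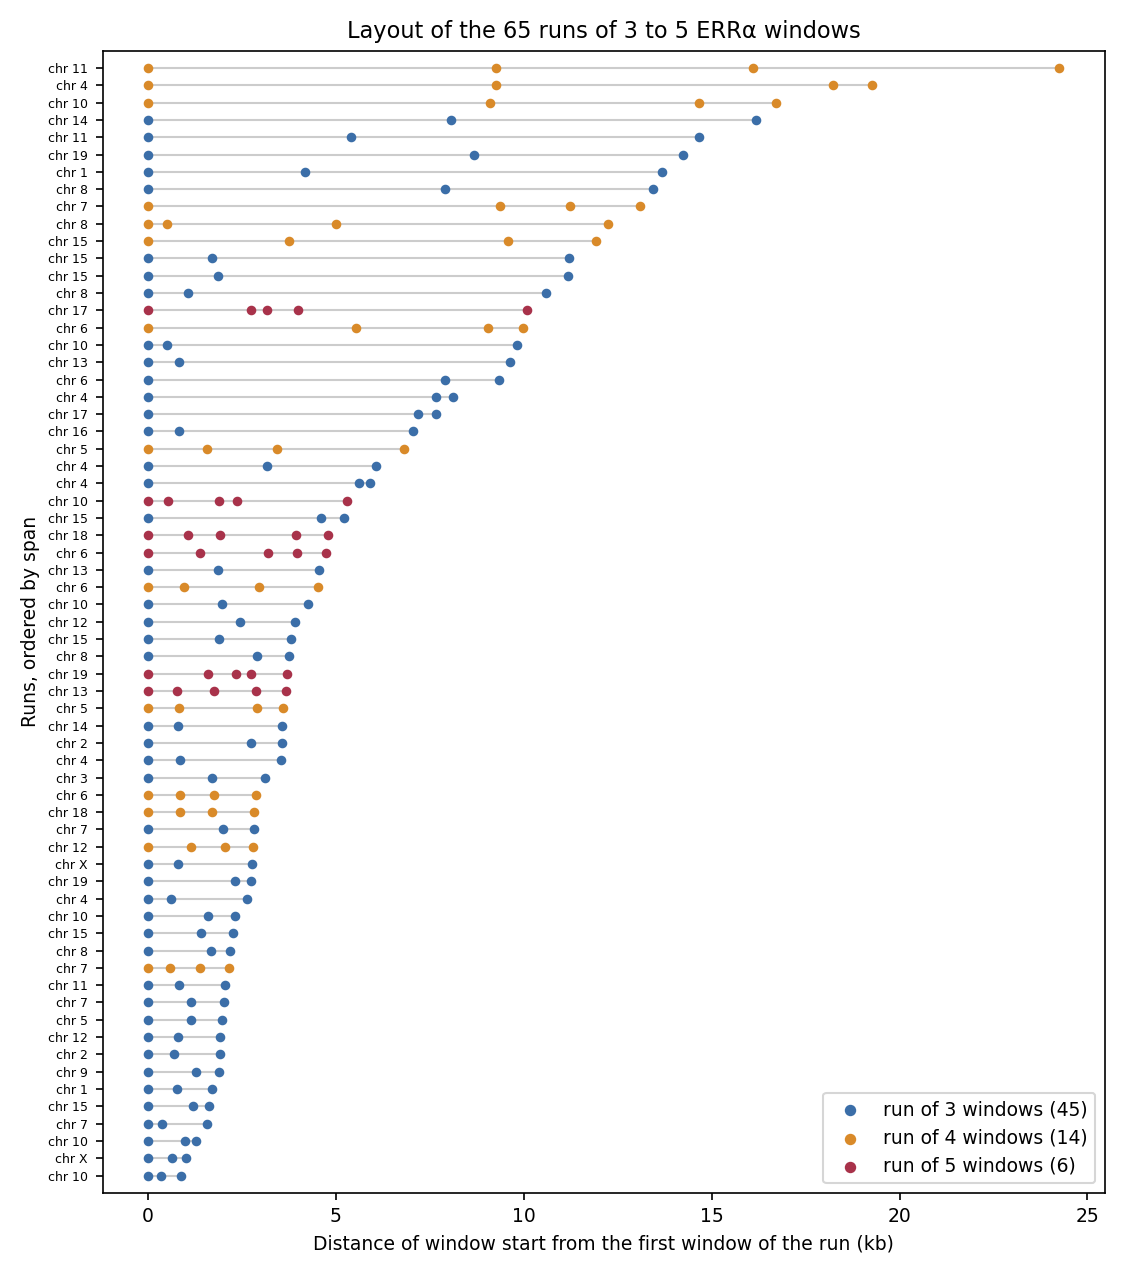
Each row is 1 of the 65 runs, ordered by span and labelled by chromosome; points are window starts, at their distance in kb from the first window of the run, and colours give the number of windows. Most rows end within 5 kb of their first window, while those at the top reach up to 24.5 kb.

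The runs of 5 windows were the richest of these loci, and 5 of the 6 had no step above 3 kb. The tightest lay on chromosome 13 at 21855751 to 21859625, with steps of 775, 975, 1125 and 800 bp. On chromosome 19 at 5845726 to 5849625 the steps were 1600, 725, 400 and 975 bp, with the 3 middle windows closest together. On chromosome 6 at 125111126 to 125116050 they were 1375, 1825, 750 and 775 bp. The run on chromosome 18 at 11801101 to 11806100 had steps of 1050, 875, 2000 and 875 bp. These 4 runs spread their windows over the whole locus, with no step longer than 2000 bp. On chromosome 10 at 79609351 to 79614850, by contrast, 4 windows with steps of 525, 1350 and 500 bp were followed by the last one after 2925 bp. The run on chromosome 17 at 46163326 to 46173600 was the longest of the 6, at 10.3 kb: its 3 middle windows, 450 and 825 bp apart, stood 2725 bp from the first window and 6075 bp from the last. This locus therefore combined a tight core with an outlying window on each side.

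The most compact runs of 3 or 4 windows all had 3. The shortest span of all, 1075 bp, was on chromosome 10 at 125340876 to 125341950, with steps of 350 and 525 bp. It was followed by a run on the X chromosome at 34335426 to 34336625, with steps of 625 and 375 bp. Next came a run on chromosome 10 at 21346976 to 21348450 (975 and 300 bp) and a run on chromosome 7 at 89400726 to 89402500 (375 and 1200 bp). The last lay on chromosome 15 at 79963401 to 79965225, with steps of 1200 and 425 bp. At each of these 5 loci, 3 windows fitted within 1825 bp, from the start of the first to the end of the last. The median step in runs of 2, from start to start, was 1750 bp, and the shortest was 250 bp. The 5 loci were picked for their short span, so these values are not like for like.

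The longest runs of 3 or 4 windows were chains of widely set windows. On chromosome 11 at 115265051 to 115289500, 4 windows followed each other at 9250, 6850 and 8150 bp, a span of 24.5 kb. On chromosome 4 at 148139726 to 148159200 the steps were 9250, 8975 and 1050 bp, and on chromosome 10 at 75384126 to 75401025 they were 9100, 5550 and 2050 bp. Both of these had their shortest step at the higher coordinate. The run on chromosome 14 at 7490651 to 7507025 had nearly equal steps of 8050 and 8125 bp. The last, on chromosome 11 at 74349601 to 74364450, had steps of 5400 and 9250 bp. Such loci are runs only because the joining distance is 10 kb, and each of these 5 had at least 2 steps of 5 kb or more.

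Some loose runs of 3 joined a close pair to a distant window. Among the 15 runs of 3 with a step of 5 kb or more, the other step was at most 1 kb in 6 and was itself 5 kb or more in 4. Examples were the run on chromosome 4 at 129984026 to 129990125, with steps of 5600 and 300 bp, and that on chromosome 10 at 127519951 to 127529975, with 500 and 9325 bp. Both were named after their values were seen. Steps of at most 1 kb made up 37.8% of the 90 steps in all runs of 3. The 6 of 15 lie near that share, so a close pair is not particular to loose runs. Over all 45 runs of 3, the longer step was at least 2 times the shorter in 26 and at least 5 times in 12. The ratio was under 1.5 in 12 runs, as many as had a ratio of at least 5. These ranges of the ratio differ in width, so their counts do not rank even against uneven layouts. The smallest difference between the steps of a run of 3 was on chromosome 15 at 85429351 to 85433350, at 1875 and 1925 bp; this run was named after its values were seen. No run of 3 to 5 windows (0 of 65) had all its steps equal within 25 bp, the resolution of the list.

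The steps themselves piled up just under 1 kb. Of the 156 steps inside the runs, 36 (23.1%; exact 95% interval 16.7% to 30.5%) were from 750 to under 1000 bp, and 27 of the 65 runs held at least 1 of them. The bin from 800 to under 900 bp was the fullest of the 100 bp bins below 3 kb, with 22 steps, against 10 in the bin before it and 8 in the bin after it. Runs of 2 had their fullest bin at the same place, with 16 of 213 steps from 800 to under 900 bp, against 8 and 9 beside it. From 750 to under 1000 bp runs of 2 had 31 of 213 steps (14.6%; 10.1% to 20.02%), an interval that overlaps that of the larger runs. Very short steps, under 500 bp, made up 6.41% of the steps in the runs (3.12% to 11.5%) and 12.2% of those in runs of 2 (8.13% to 17.4%). Steps of 5 kb or more made up 19.9% (13.9% to 27.0%) and 28.2% (22.2% to 34.7%). The intervals cover counting error only and treat steps as independent, which steps of the same run are not; the differences between the classes were not tested.

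**Figure D2:**
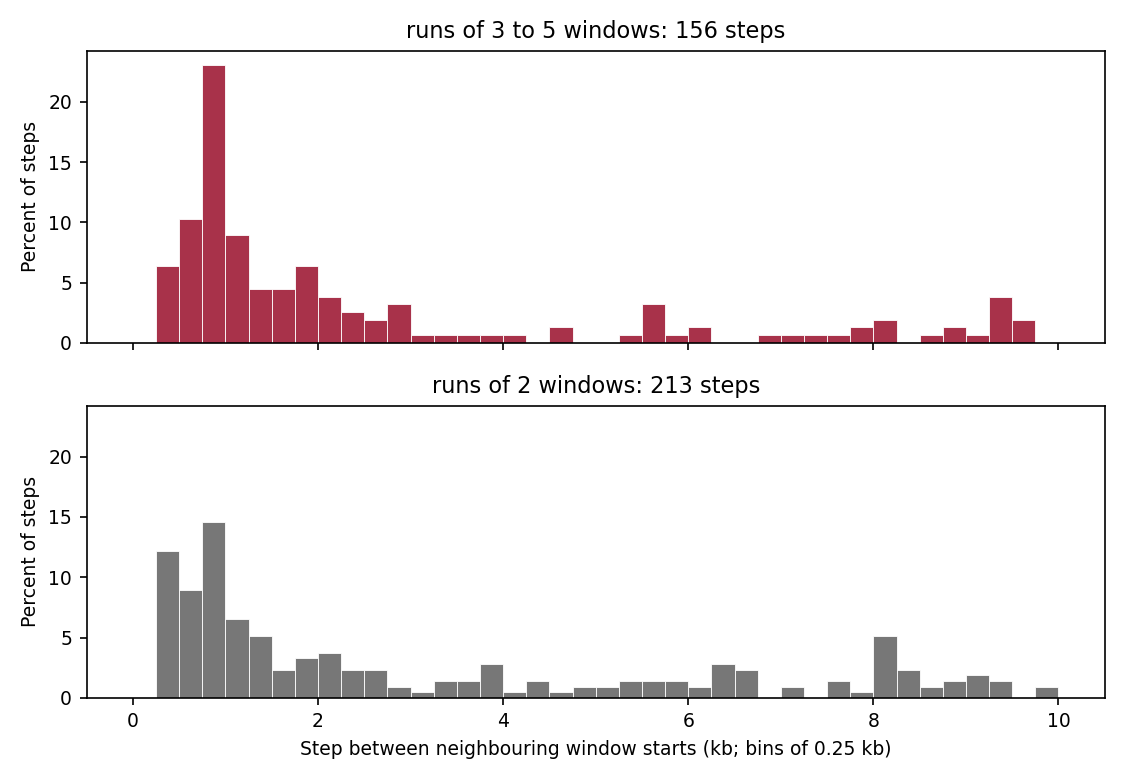
Bars give the percent of steps between neighbouring window starts in bins of 0.25 kb, for the 156 steps of runs of 3 to 5 windows (top) and the 213 steps of runs of 2 (bottom). The fullest bin in both panels is the one from 0.75 to 1 kb, with 23.1% and 14.6% of the steps.

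Several runs on different chromosomes repeated each other's layout. On chromosome 18 at 6664876 to 6667900 the 4 windows followed at 850, 850 and 1125 bp, and on chromosome 6 at 94989426 to 94992500 at 850, 900 and 1125 bp. On chromosome 12 at 8590901 to 8593900 the steps were 1150, 900 and 750 bp, close to the same series read from the other end. The 5-window run on chromosome 13 opened with 775, 975 and 1125 bp. Other runs had a step near the sum of a pair of these: 825, 2075 and 700 bp on chromosome 5 at 94945551 to 94949350, 2000 and 825 bp on chromosome 7 at 23559051 to 23562075, and 800 and 1975 bp on the X chromosome at 140709076 to 140712050. These runs were picked out after their values were seen. Their sequence was not used, so whether these windows lie in copies of a repeated element, among which reads can be misassigned, was not tested; a shared layout is therefore not shown to be repeated binding of ERRα.

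To describe this over all runs, each pair of runs was laid over each other in both orientations with 1 window of each set together. Windows lying within 50 bp of each other were counted, including those set together. Every choice of these windows was tried and the placement with the most matches was kept. A count of 3 coinciding windows thus includes 1 that was set by the placement. In 60 of the 2080 pairs of runs at least 3 windows coincided, and in 2 of these pairs all 4 windows did: chromosome 18 (6664876) with chromosome 6 (94989426), and chromosome 18 with chromosome 12 (8590901). Some 32 of the 65 runs, on 17 chromosomes, had at least 1 such partner, and 3 of the 60 pairs lay on the same chromosome. Runs with every step at most 3 kb had a partner in 27 of 39 cases, and runs with a step of 5 kb or more in 4 of 23. These classes are defined by their steps, and steps of at most 3 kb have fewer lengths by which to differ. How far this alone sets the contrast was not tested. By size, partners were found for 17 of the 45 runs of 3, 9 of the 14 runs of 4 and all 6 runs of 5; a run with more windows has more ways to match. With a tolerance of 25 bp, 20 runs kept a partner, in 27 pairs. No pair (0 of 2080) then had 4 coinciding windows, so the 2 full matches depend on the tolerance of 50 bp. How many matches layouts with nothing in common would give was not tested.

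The 5-window run on chromosome 13 had the most partners, 12, and served as reference. Its windows started at 0, 775, 1750, 2875 and 3675 bp. The 3 windows of the run on chromosome 12 at 60324051 to 60326175, read in reverse, fell on the last 3 of these positions with a difference of 0 bp. The run on chromosome 1 at 88973126 to 88975025 fell on the first 3, off by 50 bp at the third. Runs on chromosome 5 at 115341151 and chromosome 8 at 109200526 reached the last position at 3725 bp, 50 bp beyond the reference. The second window of the chromosome 6 and chromosome 18 runs, at 850 bp, missed the reference by more than the tolerance. Some partners fitted loosely. The run on chromosome 7 at 23559051, read in reverse, differed by 0, 50 and -50 bp. The 12 also include the chromosome 7 run at 66857651, which lies beside a long run described below. It differed by -50, 50 and 0 bp, and its other window lay at -9425 bp.

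**Figure D3:**
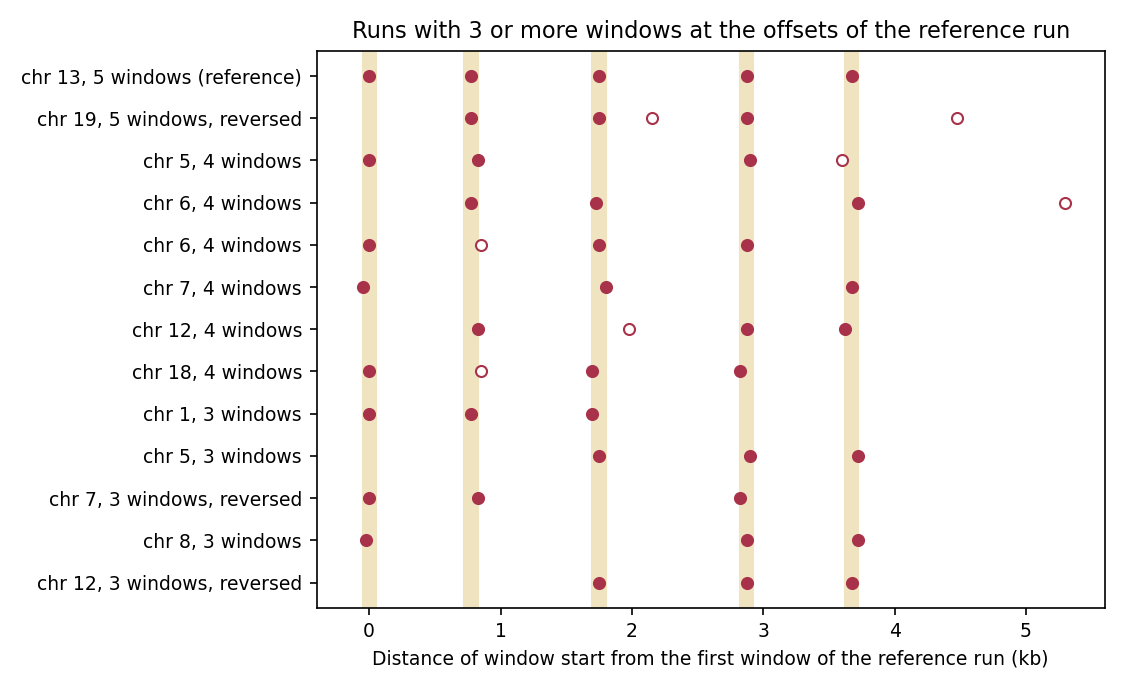
Rows are the reference run on chromosome 13 and the 12 runs with at least 3 windows within 50 bp of its offsets (shaded bands); points are window starts in kb from the first reference window, filled where they fall in a band and open where they do not, and "reversed" marks runs read from their higher coordinate. 1 window of the chromosome 7 run with 4 windows lies left of the axis.

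The distances between any 2 windows of a run, not neighbours alone, were also uneven. Among the 279 distances within the runs, 33 were from 700 to under 900 bp, 35 from 1700 to under 2100 bp and 21 from 2700 to under 3000 bp, or 16.5, 8.75 and 7 per 100 bp. Between the first 2 of these stretches, each 100 bp bin from 900 to under 1700 bp held 4 to 8 distances, so that part was not empty. The stretch from 2100 to under 2700 bp was thinner, with 15 distances (2.50 per 100 bp). So was that from 3000 to under 3500 bp, beyond the last full one, with 8 (1.60 per 100 bp). These stretches were chosen after the values were seen, and the runs of the shared layout are among those counted. A distance across more than 1 step is a sum of neighbouring steps. Steps piled up just under 1 kb can therefore give distances near 2 times that length. How far such sums fill the longer stretches was not tested. The 213 runs of 2, which have no distance other than their step, had 12, 3.25 and 1 distances per 100 bp in the 3 full stretches and 2.17 and 0.80 in the 2 thin ones. There the distances from 2700 to under 3000 bp did not stand above the stretch before them. The densities in runs of 2 rest on 213 distances without sums of steps. They are therefore not like for like with those of the 279.

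Of the 65 runs, 2 lay next to a long run that was set aside, and 1 of them continued its spacing. On chromosome 7 at 66857651 to 66870950, 4 windows followed a run of 26 windows (66764076 to 66842850) after a gap of 14.8 kb. The steps of the 4 windows were 9375, 1850 and 1875 bp, and the median step of the long run was 1875 bp. The first step was 5 times that length, and the step across the gap, 15000 bp, was 8 times that length, both exactly to the 25 bp of the list. On chromosome 4 at 88403376 to 88409650, 3 windows with steps of 3175 and 2900 bp lay 10.0 kb before a run of 12 windows (88419676 to 88452075), whose steps ran from 2825 to 3000 bp. There 1 of the 2 steps fell within the range of the long run, and the step across the gap, 10225 bp, was 3.50 times its median of 2925 bp. By position, the chromosome 7 windows cannot be told apart from further members of the neighbouring array.

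Runs of 3 to 5 windows were found on 20 of the 21 chromosomes with windows, all but Y. Chromosomes 10 and 15 carried 7 each and chromosome 4 carried 6, while chromosomes 6, 7 and 8 had 5 each. Together these 6 chromosomes held 35 of the 65 runs, and chromosomes 3, 9 and 16 held 1 run each. The 6 were grouped because each had 5 or more such runs, so their joint share is high by choice. On chromosomes 10 and 15 lay 21.5% of these runs (exact 95% interval 12.3% to 33.5%), 14.1% of the runs of 2 (9.71% to 19.5%) and 12.9% of the single windows (11.6% to 14.3%). Because these chromosomes carried the most runs of 3 to 5, their share is the highest that any 2 chromosomes could give. The intervals take no account of that. Counted against all runs of 1 to 5 windows on the same chromosome, the larger runs made up 3.98% on chromosome 10 (1.61% to 8.02%), 3.91% on chromosome 15 (1.59% to 7.89%) and 4.17% on chromosome 7 (1.37% to 9.46%). The share was 3.23% on chromosome 4 (1.19% to 6.89%), 3.45% on chromosome 6 (1.13% to 7.86%) and 3.33% on chromosome 8 (1.09% to 7.61%). Chromosome 2, which had the most single windows, had 2 such runs, or 0.858% (0.104% to 3.07%). Over the genome the share was 2.42% (1.87% to 3.07%), and the interval of each of these chromosomes reached it. The numbers per chromosome are too small to order the chromosomes.

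**Figure D4:**
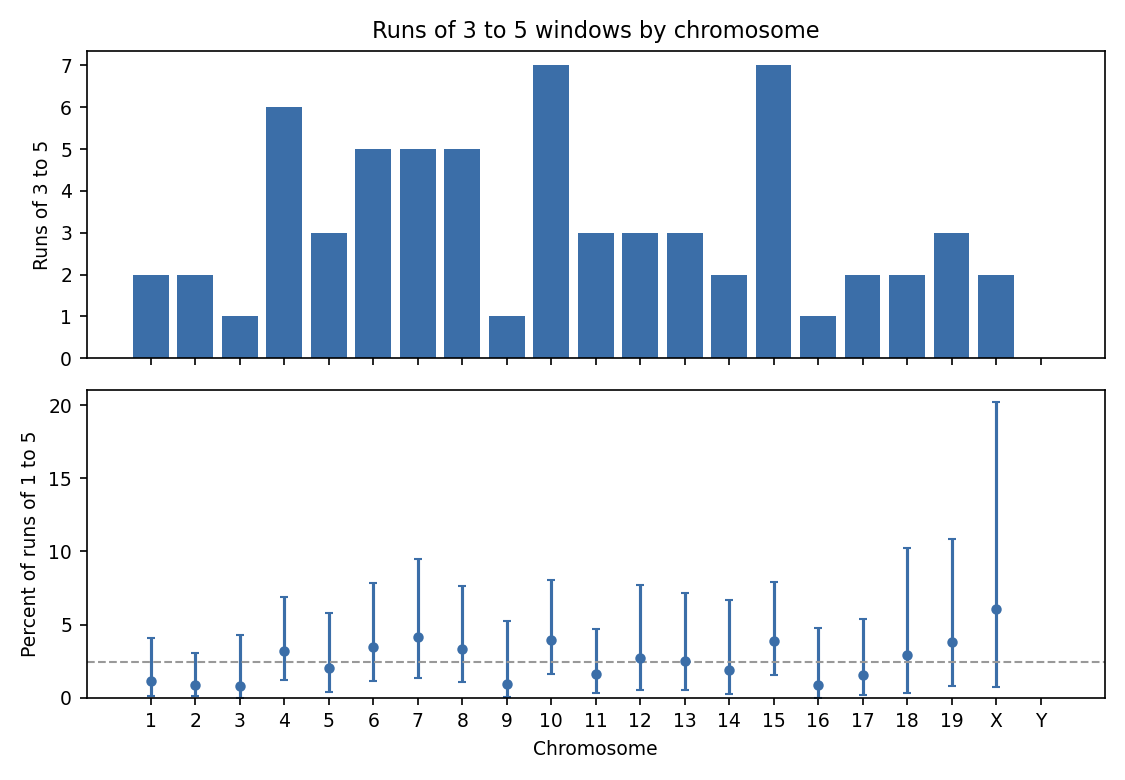
The top panel gives the number of runs of 3 to 5 windows on each chromosome, and the lower panel their percent of all runs of 1 to 5 windows there, with exact 95% intervals (bars) and the share over all chromosomes, 2.42% (dashed line). Y, with 2 single windows, has no point in the lower panel, and the bar of X, with 2 of 33 runs, is the widest.

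Runs of 3 to 5 had, at the median, closer ERRα windows around them than smaller runs. Outside the run, the nearest window lay at a median of 85.9 kb (quartiles 31.1 and 199 kb) from runs of 3 to 5, 128 kb (44.4 and 316 kb) from runs of 2 and 186 kb (68.7 and 487 kb) from single windows. A window within 100 kb was found for 52.3% of the runs of 3 to 5 (39.5% to 64.9%), 44.6% of the runs of 2 (37.8% to 51.5%) and 34.1% of the single windows (32.3% to 36.1%). Over these 3 classes the medians and shares were ordered by run size, but their quartiles overlapped widely and the order was not tested. The 8 runs of more than 5 windows broke the order, with a median of 409 kb and a window within 100 kb for 25% of them. Within 1 Mb the median number of other windows was 5 for runs of 3 to 5, 4 for runs of 2, 3 for single windows and 2 for runs of more than 5. With each neighbouring run counted once, it was 4 for both runs of 3 to 5 and runs of 2. The nearest neighbour of a run of 3 to 5 was a single window in 54 of 65 cases, a run of 2 in 7, another run of 3 to 5 in 2 and a long run in 2. As shares these were 83.1%, 10.8%, 3.08% and 3.08%. In the whole list such runs made up 89.4%, 7.89%, 2.41% and 0.296% of all runs. The first 3 shares thus lay near the make-up of the list, and the last rests on 2 cases.

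The loci differed widely in this respect. The runs on chromosome 10 at 79609351 to 79614850 and at 81022051 to 81026500 had 19 and 17 other windows within 1 Mb, and that on chromosome 15 at 99414026 to 99416475 had 16. The 27 windows around the chromosome 7 run at 66857651 were for the most part the 26 of the long run. At the other end, 4 runs had no other window within 1 Mb: those on chromosome 5 at 94945551, chromosome 7 at 23559051, chromosome 19 at 36240951 and X at 34335426. The most isolated was the run on chromosome 7, whose nearest window was 1753 kb away. The runs on chromosome 5 and chromosome 7 in this group are among those named above for their shared layout.

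**Figure D5:**
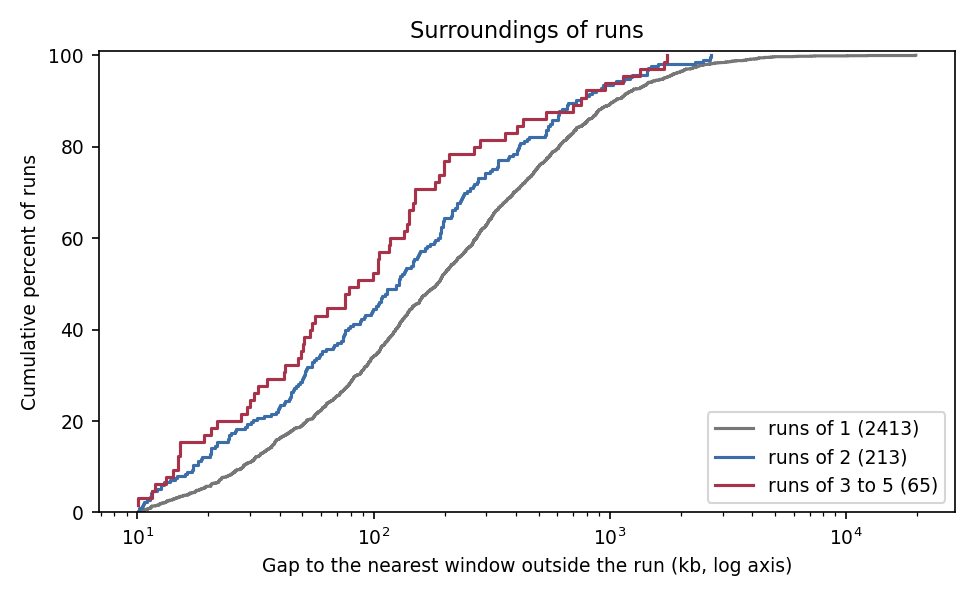
Curves give the cumulative percent of runs (vertical axis) whose nearest window outside the run lies within the gap on the horizontal axis (kb, log scale), for runs of 1, 2 and 3 to 5 windows. At 100 kb the curves stand at 34.1%, 44.6% and 52.3%; all begin at 10 kb because closer windows are joined.

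Neighbouring loci of this kind were rare but present. In 5 cases 2 runs of 3 to 5 lay within 1 Mb of each other. The closest were on chromosome 13, where runs at 62184526 to 62194350 and 62393126 to 62397875 stood 199 kb apart with no window between them. On chromosome 10 the runs at 127519951 to 127529975 and 127772801 to 127775300 were 243 kb apart, again with nothing between. On chromosome 8, 225 kb separated the runs at 108964826 to 108975625 and 109200526 to 109204475, with 1 single window between them. The other 2 cases were on chromosomes 15 and 4, at 539 and 650.0 kb.

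The joining distance set the size of many runs: 42 of the 65 were identical with joining at 5 kb, and 54 with joining at 20 kb. Just inside it, the widest gaps from the end of a window to the start of the next were 9350 bp on chromosome 8 (108964826) and 9300 bp on chromosomes 1 (75354251) and 15 (83261476). Just outside it, the nearest windows left out lay 10025 bp from the chromosome 4 run at 88403376, 10075 bp from the chromosome 5 run at 125866776 and 11525 bp from the chromosome 15 run at 83261476. The last of these loci thus has a gap near the limit on its inside and another on its outside.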

How the data were processed

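ERRα was mapped by ChIP-seq in C2C12 myotubes with over-expressed PGC-1α, with 1 immunoprecipitate and 1 input library, grouped by their titles. The submitters' processing notes name the aligner Bowtie (version 0.12.7) and mm9 as the genome build. How peaks were called and filtered is not stated in any source used here. Each row of the deposited list gives a window by chromosome and limits (3 columns), without score or count. All windows were 200 bp wide and started at multiples of 25 bp, which limits every distance. Columns of other samples numbered 0.

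Windows were sorted and joined at gaps of up to 10 kb. Runs were named by rule: all runs of 5, the 5 shortest and 5 longest of 3 or 4, and runs with steps equal within 25 bp; any other run was named after its values were seen. The members and lists were chosen with earlier results of these data known. Shares carry exact (Clopper-Pearson) 95% intervals. No test was run, since the positions chose the members. Joining was tested on simulated runs, and layout matching on simulated reversed copies of a layout with a window left out and shifts of up to 25 bp. Matches between unrelated layouts were not simulated. Motifs, genes and gene lists were not analysed here, because the sequence tables at hand are of another build. Python 3.11.15, numpy 2.4.6, pandas 2.3.3, scipy 1.17.1 and matplotlib 3.10.9 were used.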

Additional observations from a re-analysis of the deposited data

How the results depend on the processing

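Joining at 5 kb gave 49 runs with 170 windows, of which 42 runs were identical to those described, and joining at 20 kb gave 83 runs with 284 windows, of which 54 were identical. Gaps measured from start to start left all 65 runs as they were. The share of runs spanning at most 5 kb, 58.5%, was 83.7% with joining at 5 kb and 39.8% with joining at 20 kb, since the joining distance limits the span by construction. The share of steps of at most 1 kb, 39.7%, stayed within its interval at 47.1% and 32.8%. Runs sharing a layout numbered 32 with a tolerance of 50 bp, 20 with 25 bp, 38 with 75 bp and 26 in the same orientation alone. Pairs of runs with at least 4 coinciding windows numbered 2, 0, 8 and 1 in the same order. These alternatives were chosen after seeing the data. The alternatives for sequence windows, promoters and gene lists were not run, because mm9 sequence and annotation were not used here. No paired analysis was possible because the immunoprecipitate and the input are 1 library each, and no replicate could be left out. The depth of both is unknown, so a window missing from a run is not absence of binding.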
